A study of Mus musculus with 18 samples.

Results

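Described here are 30 genes of cholesterol and fatty acid synthesis in epithelium dissected from mammary buds of mouse embryos. The genes were chosen by name for their function, with earlier results of these data known. Their shares set against all tested genes are therefore not those of a blind choice. The deposited count table held all 30 among its 24376 genes, and all 30 passed the filter on low counts that left 17269 genes for testing. They fall into 18 enzymes of sterol synthesis, 5 genes that sense or carry sterols or control their synthesis, and 7 genes of fatty acid synthesis. RNA-seq was done on 4 groups of libraries, each library a pool of the hand-dissected epithelium of buds 1 to 3 from 2 to 3 embryos of 1 litter and 1 genotype, in a mixed C57Bl/6 and NMRI strain. Stabilized embryos carried Krt14Cre and 1 flox3 allele of Ctnnb1 (written Ctnn1bflox3/wt in the labels), so that Cre removes exon 3 of 1 Ctnnb1 allele in cells that express Krt14 and the β-catenin made from that allele escapes destruction. Controls were littermates that carry the same flox3 allele but no Cre (Krt14wt/wt), so an effect of Cre itself cannot be told apart from that of β-catenin. At E13.5, the bud stage, there were 4 control and 4 stabilized libraries from embryos of both sexes, and at E16.5, the sprouting stage, 5 and 5 from females, so stage and sex makeup cannot be told apart either.

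Cholesterol is built from acetyl-CoA through mevalonate, squalene and lanosterol, and fatty acids from the same acetyl-CoA through malonyl-CoA. Most enzymes of both routes are targets of the SREBP transcription factors, encoded by Srebf1 and Srebf2. These are held in the endoplasmic reticulum by INSIG proteins when sterols are plentiful and are carried to the Golgi by SCAP, where they are cut and set free, when sterols are scarce. Dividing cells need both lipids for new membranes, differentiating epidermis makes them for the skin barrier, and cholesterol is attached to Hedgehog ligands.

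Library totals ran from 26768810 to 36922108 counts. Values are CPM, the count scaled to a common library size after TMM adjustment, given per library in the order of the replicate number or as mean ± SD (n = 4 in each E13.5 group, n = 5 in each later group). Log2 fold changes are given ± SE, and adjusted p-values come from the edgeR quasi-likelihood test over all 17269 genes, with a threshold of 0.05. The SE was back-calculated as the absolute log2 fold change divided by the square root of the F statistic of that test. All 8 markers of epithelium (Epcam, Krt5, Krt8, Krt14, Krt18, Cdh1, Trp63 and Krt15) were detected in each of the 18 libraries. They summed to 2614 to 3210 CPM in E13.5 controls and 2644 to 3719 in E13.5 stabilized libraries. At E16.5 the sums were 2292 to 2634 in controls and 4184 to 7472 in stabilized libraries. With genotype, 25% passed upward and 25% downward at E13.5 (9.58% and 5.29% of tested genes). At E16.5 50% and 37.5% did (22.2% and 19.4%), among them Trp63 (2.99) and Epcam (-0.97). Their part in the members' changes was not tested. Summed CPM of 12 mesenchyme markers ranged over 487 to 1256 in E13.5 controls, 755 to 970 in E13.5 stabilized, 574 to 1014 in E16.5 controls and 570.0 to 934 in E16.5 stabilized libraries. Of 8 measured adipocyte markers, Fabp4 had no count at E13.5 in either genotype, and the list summed to 42.3 to 56.9, 27.8 to 61.3, 38.8 to 68.5 and 49.2 to 122 CPM in these 4 groups. The 8 endothelial markers summed to at most 13.95 CPM, the 8 immune markers to at most 24.6 CPM, the 8 muscle markers to at most 19.7 CPM and the 5 measured erythroid markers to at most 3.71 CPM in any library. Of the 18 libraries 3 stood apart. E13.5 control replicate 3 had 4.18% of its counts from mitochondrial genes against at most 2.50% in the other controls of that stage. It also had 1256 summed CPM of mesenchyme markers against 487 to 808 in those controls. The mitochondrial share was 2.205% to 3.88% in E16.5 controls and 2.62% to 5.36% in E16.5 stabilized libraries. E16.5 stabilized replicate 1 had 24594 summed CPM of 18 epidermal differentiation genes against 2538 to 3832 in the other 4 of its group. E16.5 stabilized replicate 4 had the lowest TMM factor (0.777) and differed from each of its group by 614 to 699 chi-square units per degree of freedom over genes, against at most 194.5 among the other 4. In bulk RNA, a change in the share of a cell type and a change in RNA per cell cannot be told apart.

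The windows just before the start sites of 5 members are shown because these genes stand for some of the response types met below: Hmgcs1 rose at both stages, Mvk and Nsdhl rose at E16.5, and Fasn and Acly fell at E16.5. No member called higher at E13.5 alone is shown, nor is Acat2, which rose at E13.5 and fell at E16.5. Each window shown is the 250 bases upstream of a RefSeq start site (GRCm38.p6), written 5′ to 3′ on the gene's strand. Capitals mark TCACNCCAC (the core of a sterol regulatory element, where SREBP binds) and CCAAT (the box bound by NF-Y, a frequent partner of SREBP), each on either strand, so that CCAAT on the other strand reads ATTGG.

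Hmgcs1, chr13:119690101-119690350, plus strand: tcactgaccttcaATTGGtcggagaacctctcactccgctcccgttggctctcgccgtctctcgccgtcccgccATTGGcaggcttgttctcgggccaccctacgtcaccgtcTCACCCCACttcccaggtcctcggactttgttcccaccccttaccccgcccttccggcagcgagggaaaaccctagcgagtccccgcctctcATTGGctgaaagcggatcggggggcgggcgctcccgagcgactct
Mvk, chr5:114444019-114444268, plus strand: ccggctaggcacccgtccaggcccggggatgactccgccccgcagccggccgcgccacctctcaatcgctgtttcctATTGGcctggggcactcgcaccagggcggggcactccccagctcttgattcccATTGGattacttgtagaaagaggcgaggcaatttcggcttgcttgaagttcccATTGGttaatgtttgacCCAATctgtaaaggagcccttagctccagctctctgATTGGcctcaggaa
Nsdhl, chrX:72918271-72918520, plus strand: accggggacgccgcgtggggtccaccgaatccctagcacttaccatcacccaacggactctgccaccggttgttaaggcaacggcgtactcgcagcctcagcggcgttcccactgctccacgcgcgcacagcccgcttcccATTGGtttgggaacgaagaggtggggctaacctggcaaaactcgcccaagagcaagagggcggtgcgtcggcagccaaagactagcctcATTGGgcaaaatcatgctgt
Fasn, chr11:120824548-120824797, minus strand: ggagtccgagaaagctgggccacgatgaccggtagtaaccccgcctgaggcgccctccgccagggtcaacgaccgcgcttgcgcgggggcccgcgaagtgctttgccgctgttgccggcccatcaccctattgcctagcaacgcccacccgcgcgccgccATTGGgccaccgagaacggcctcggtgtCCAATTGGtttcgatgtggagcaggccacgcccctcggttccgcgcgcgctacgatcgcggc
Acly, chr11:100528001-100528250, minus strand: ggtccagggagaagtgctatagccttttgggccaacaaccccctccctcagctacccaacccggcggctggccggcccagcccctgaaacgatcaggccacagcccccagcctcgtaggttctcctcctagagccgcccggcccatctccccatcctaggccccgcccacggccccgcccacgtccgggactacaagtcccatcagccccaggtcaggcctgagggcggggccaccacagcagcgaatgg

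Hmgcs1 has TCACCCCAC 137 bases before its start site and 3 CCAAT boxes, Mvk has 5 CCAAT boxes, Nsdhl has 2, Fasn has 3 of which 1 pair overlaps, and Acly has none. Windows were found for 24 of the 30 members (not for Fdps, Fdft1, Sqle, Stard4, Scd1 and Scd2). CCAAT was present in 19 of the 24 (79.2%), against 39.8% of the 12311 tested genes with a window and 37.5% of all 27025 genes with one. The GC box GGGCGG, bound by Sp factors, was present in 20 (83.3%) against 59.1% of tested and 35.4% of all genes. TCACNCCAC was present in 1 (4.17%, Hmgcs1) against 1.20% and 1.22%, and the E-box CANNTG in 62.5% against 63.4% and 69.3%. CTTTGA, the core letters of the TCF/LEF site through which β-catenin acts, was present in 3 (12.5%, Pmvk, Elovl6 and Me1) against 13.2% and 15.8%. All motifs were searched as exact letters on both strands, and CCAATTG holds both a CCAAT and an E-box. Where a gene has several start sites, a match in any of its windows was counted. These are letter matches only.

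The comparison at E13.5 asked how stabilized buds differed from control buds. Stabilized buds had more RNA of the sterol enzymes Acat2 (a cytosolic thiolase), Hmgcs1, Idi1, Fdps, Fdft1, Sqle and Dhcr7, and of Insig1, Stard4 and Me1, while no member was called lower. Mvk, Pmvk and Mvd, whose enzymes act between those of Hmgcs1 and Idi1, did not pass (0.01, 0.49 and 0.47 on the log2 scale). Insig1 rose 2.72-fold and Me1 6.42-fold, and the others that passed between 1.41-fold and 1.82-fold. Of the 30 members 10 rose and 0 fell (33.3% and 0%), where 9.58% of all tested genes rose and 5.29% fell, 14.9% in either direction. The median log2 fold change was 0.43 over the members and 0.01 over all tested genes, and 27 of 30 fold changes were above 0. The 22 cell-cycle genes rose as well, all 22 of them, from a summed 859 to 1186 CPM in controls to 2153 to 2645 CPM in stabilized libraries, and their part in the members' rise was not tested. Of the other lists, 5 of 18 epidermal differentiation genes rose, the mesenchyme marker Postn rose (2.47) and Vim fell (-1.19), and 1 of 8 immune markers, Cd74, fell (-4.37); no adipocyte or sebocyte marker was called. Their part was not tested either.

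**Figure D1:**
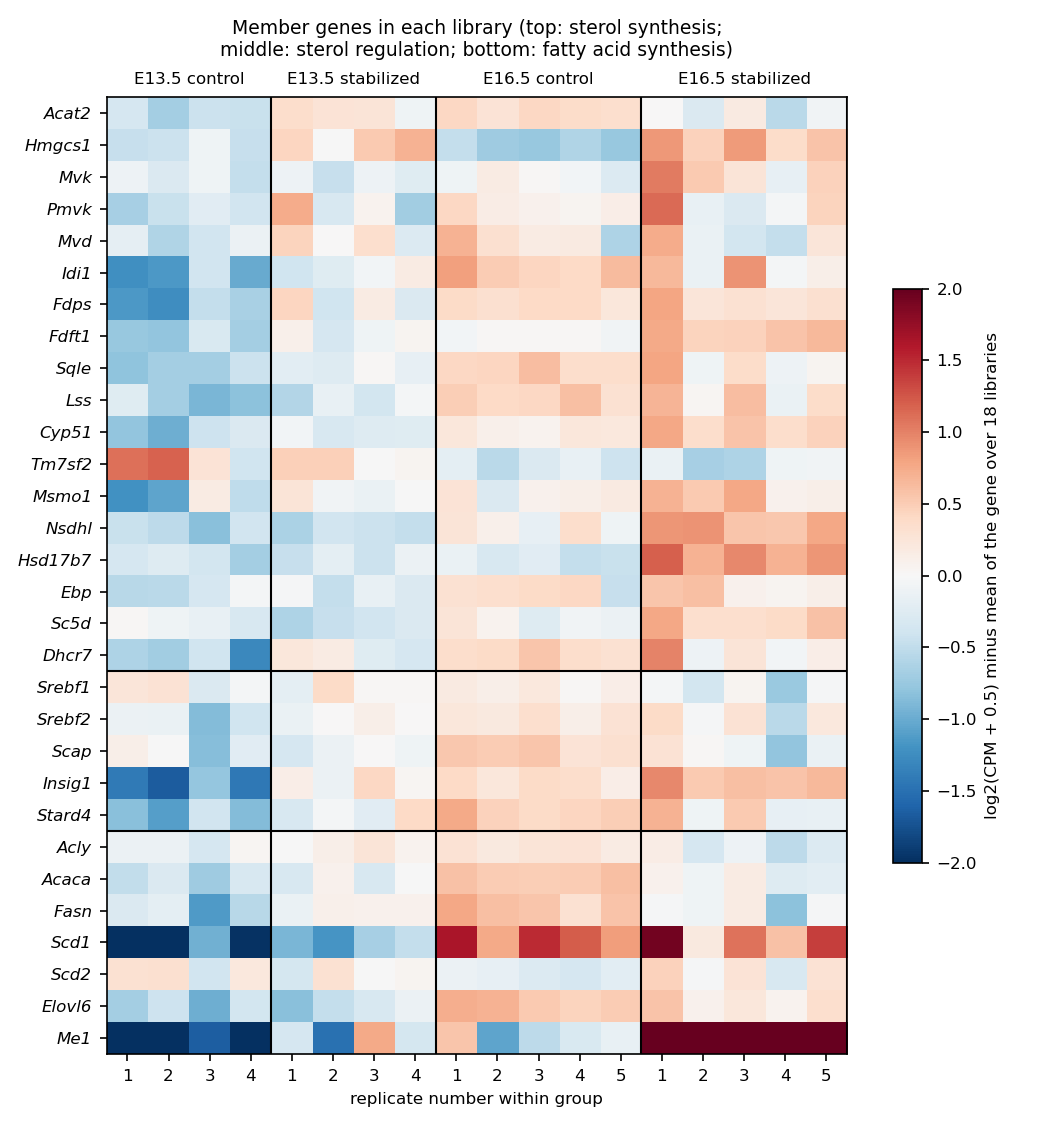
Color map of the 30 member genes (rows, in pathway order) in 18 libraries (columns, by group and replicate), as log2 CPM with a small constant added, minus the mean of the gene over all libraries; red is above and blue below that mean. Most rows are bluest in E13.5 controls, Hmgcs1 is bluer in both control groups than in the stabilized groups, and Me1 is deep red in all 5 E16.5 stabilized libraries.

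Among the regulators, Insig1 (ENSMUSG00000045294, chromosome 5, 28071363 to 28078662), whose protein retains SREBP in the endoplasmic reticulum and which is itself an SREBP target, changed most. Control buds had 11.6, 9.64, 18.4 and 11.4 CPM and stabilized buds 34.6, 29.2, 42.2 and 32.6 CPM. The lowest stabilized value lay above the highest control value, and control replicate 3 was the highest control (log2 fold change 1.44 ± 0.179, adjusted p = 9.78e-06). Stard4, a carrier of sterols between membranes, rose from 17.8 ± 4.03 to 30.3 ± 7.26 CPM (adjusted p = 0.0200) and missed the threshold without any 1 of control replicates 1, 2 or 4 or stabilized replicate 4 (adjusted p 0.0509 to 0.0903). It also missed the threshold with the deposited offsets (0.60, adjusted p = 0.256) and with the E13.5 groups fitted alone (0.76, adjusted p = 0.0528). The SREBP genes themselves did not pass with the TMM factors. Srebf1 had 114, 117, 78.7 and 93.9 CPM in controls and 83.8, 126, 98.1 and 98.4 CPM in stabilized buds, with overlapping ranges and a fold change of 0.01 ± 0.166 on the log2 scale (adjusted p = 1.00). Srebf2, which encodes the form most tied to cholesterol genes, had 224, 222, 133 and 185 CPM in controls and 223, 245, 264 and 244 CPM in stabilized buds. Its control replicate 3 was far below the other controls, and the ranges overlapped (0.35 ± 0.173, adjusted p = 0.205). With the deposited offsets it was called higher (0.56, adjusted p = 0.0497). Scap, the SREBP escort, had 120.2, 110.5, 61.1 and 94.6 CPM in controls, again lowest in replicate 3, and 87.8, 103, 112 and 105 CPM in stabilized buds (0.08 ± 0.195, adjusted p = 0.883).

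In sterol synthesis 7 of 18 enzymes rose and 0 fell, with a median log2 fold change of 0.48. These are 38.9% and 0%, against 9.58% and 5.29% of tested genes. Hmgcs1 (ENSMUSG00000093930, chromosome 13, 119690379 to 119708260), which makes HMG-CoA for the mevalonate route, had 209, 213, 269.9 and 207 CPM in controls and 385, 284, 410.2 and 465 CPM in stabilized buds. The ranges did not overlap even though control replicate 3 was high (0.78 ± 0.152, adjusted p = 0.00118). Acat2, the cytosolic thiolase that joins acetyl-CoA units, had 81.2, 63.9, 76.2 and 75.5 CPM in controls and 131, 124, 123 and 97.0 CPM in stabilized buds. Here too every stabilized library exceeded every control (0.68 ± 0.137, adjusted p = 0.00161). Fdps, which makes farnesyl diphosphate, had 26.4, 24.7, 42.2 and 37.5 CPM in controls and 79.8, 44.5, 66.2 and 48.1 CPM in stabilized buds, without overlap but with the lowest stabilized value close to the highest control (0.87 ± 0.193, adjusted p = 0.00360). Sqle, the squalene oxygenase that controls entry into the sterol ring steps, had 51.1, 55.9, 56.1 and 66.9 CPM in controls and 77.2, 75.4, 91.0 and 80.1 CPM in stabilized buds. Its ranges did not overlap, but its call was marginal (0.49 ± 0.162, adjusted p = 0.0463) and was absent in 18 of 25 alternative analyses (adjusted p up to 0.138), among them each that left out 1 E13.5 library other than control replicate 4.

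The remaining calls in this arm were Idi1, the isomerase of the 5-carbon units (0.79 ± 0.225), Fdft1, squalene synthase (0.57 ± 0.126), and Dhcr7, the last reductase before cholesterol (0.70 ± 0.228). The Dhcr7 call was absent in 16 of 25 alternatives (adjusted p up to 0.155) and that of Idi1 in 6 (up to 0.201), for Idi1 without any 1 of control replicates 1, 2 or 4 or stabilized replicates 3 or 4. Fdft1 lost its call in 1 alternative, with the E13.5 groups fitted alone (0.56, adjusted p = 0.0527), where Dhcr7 did not pass either (0.0908). Cyp51, the lanosterol demethylase, had 48.5, 42.6, 63.0 and 68.8 CPM in controls and 80.8, 67.2, 70.4 and 71.1 CPM in stabilized buds. The groups overlapped through control replicate 4 (0.38 ± 0.138, adjusted p = 0.0753), and the gene was called without that replicate (adjusted p = 0.0251) or without replicate 3 (0.0433). Hsd17b7, a ketoreductase of the demethylation steps, had 30.7, 32.5, 29.9 and 24.0 CPM in controls and 28.2, 34.1, 28.9 and 36.0 CPM in stabilized buds (0.12 ± 0.143, adjusted p = 0.693). The fold changes of the other enzymes that did not pass ran from -0.42 (Tm7sf2, a sterol reductase) to 0.58 (Msmo1, the methyl oxidase). Msmo1 was called without control replicate 3 (0.93, adjusted p = 0.00329), a library with 51.3 CPM of Msmo1 against 19.4 to 32.2 in the other controls.

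In fatty acid synthesis, with a median log2 fold change of 0.32, 1 of 7 genes rose (14.3%, against 9.58% of tested genes). This gene was Me1, the malic enzyme that supplies NADPH, with 0.414, 0.268, 2.31 and 1.68 CPM in controls and 6.46, 2.62, 14.3 and 6.41 CPM in stabilized buds. Each stabilized library exceeded each control, though the lowest of them only just exceeded control replicate 3 (2.68 ± 0.625, adjusted p = 0.00696), and the call was lost with the deposited offsets described below (2.01, adjusted p = 0.111). Fasn, the fatty acid synthase, had 399, 424, 221 and 331 CPM in controls and 442, 524, 517 and 514 CPM in stabilized buds. The ranges did not overlap, yet the test was not passed (0.54 ± 0.196, adjusted p = 0.0721), except without control replicate 2 (adjusted p = 0.0467), without E16.5 stabilized replicate 4 (0.0213), with DESeq2 (0.0378) or with a replicate block (0.0491). Acaca, the carboxylase that makes malonyl-CoA, had 117, 136, 100.3 and 133 CPM in controls and 132, 176, 133 and 165 CPM in stabilized buds, which overlapped (0.32 ± 0.128, adjusted p = 0.112). Of the desaturases, Scd1 was low, with 3.11, 2.38, 8.73 and 4.08 CPM in controls and 9.06, 7.46, 10.9 and 12.4 CPM in stabilized buds. It passed without control replicate 3, its highest control (1.64, adjusted p = 0.00396, against 1.12 and 0.0622 with all libraries), without E16.5 stabilized replicate 1 and with DESeq2. Its paralog Scd2 had 1036, 1038, 638 and 968 CPM in controls and 656, 1027, 829.9 and 867 CPM in stabilized buds, with overlapping ranges (-0.12 ± 0.178, adjusted p = 0.758). Acly, which makes cytosolic acetyl-CoA from citrate, stood at 0.24 ± 0.128 and Elovl6, the elongase of palmitate, at 0.18 ± 0.164, and neither passed.

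CPM ranges of the groups did not overlap for 9 members at E13.5, all with stabilized buds higher, where the same held upward for 9.93% and downward for 6.6% of tested genes. These were Acat2, Hmgcs1, Fdps, Sqle, Dhcr7, Insig1, Stard4, Fasn and Me1. Without E13.5 control replicate 3 and E16.5 stabilized replicate 1 together, 13 members rose and 0 fell. Without control replicate 1, 6 members rose, and with gene-by-library offsets from the deposited normalized values 6 rose and 1, the desaturase gene Sc5d, fell (-0.85, adjusted p = 0.0282).

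At E16.5, where 41.7% of all tested genes differed between stabilized and control epithelium, the members' shares were near that background: 8 of 30 rose and 5 fell (26.7% and 16.7%), against 22.2% and 19.4% of all genes. Acly, Acaca and Fasn of fatty acid synthesis, the thiolase Acat2 and the SREBP escort Scap fell, and Hmgcs1, Hsd17b7, Nsdhl and 4 other sterol enzymes, and Me1, rose. Fasn RNA stood at 0.62 and Acaca at 0.67 of its control level, against a 2.46-fold rise of Hmgcs1, a 2.34-fold rise of Hsd17b7 and an 8.26-fold rise of Me1. The median log2 fold change was -0.02 over the members and 0.10 over all genes. Cell-cycle genes went down at this stage, 19 of 22 of them, from a summed 5198 to 6160 CPM in controls to 2906 to 3452 CPM, and all 18 epidermal differentiation genes rose, from 147 to 332 CPM to 2538 to 24594 CPM; whether these changes had a part in those of the members was not tested. Of 9 tested genes listed as markers of sebocytes, gland cells rich in lipid synthesis, Mgst1 (-2.10) and Plin2 (-0.85) fell and Cyp4f39 rose (5.20), with a median of 0.12. The 11 measured summed to 129 to 144 CPM in controls and 69.5 to 137 CPM in stabilized libraries. Whether the genes of this list mark sebocytes alone in this tissue was not tested. Of 6 tested adipocyte markers, Fabp4, a fatty acid carrier, rose from at most 0.268 CPM in controls to between 2.89 and 11.6 CPM, and Pparg, the adipocyte transcription factor, rose by 1.85 ± 0.477 on the log2 scale. All 6 fold changes were above 0, with a median of 0.90. Of 12 mesenchyme markers 2 rose, Dcn (6.22) and Postn (2.07), and 3 fell, among them Vim (-1.72). The part of these markers in the members' changes was not tested.

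The fatty acid arm had 3 members that fell and 1 that rose out of 7, with a median of -0.32. These are 42.9% and 14.3%, where 19.4% of tested genes fell and 22.2% rose. Fasn (ENSMUSG00000025153, chromosome 11, 120805846 to 120824547) had 834, 737, 717, 599 and 722 CPM in controls and 481, 459, 546, 274 and 479.6 CPM in stabilized libraries. No value overlapped, and stabilized replicate 4 was the lowest by a wide margin (-0.69 ± 0.175, adjusted p = 0.00351). Acaca (ENSMUSG00000020532, chromosome 11, 84129672 to 84401651) had 248, 234, 232, 234 and 251 CPM in controls and 176, 155, 186, 138 and 142 CPM in stabilized libraries. Its controls lay within a narrow band above all stabilized libraries (-0.59 ± 0.115, adjusted p = 0.000348). Acly fell from 379 ± 14.4 to 279.5 ± 50.5 CPM, also without overlap (adjusted p = 0.00427).

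The desaturases and the elongase of this arm did not pass. Scd1 had 55.5, 29.8, 50.2, 41.2 and 31.4 CPM in controls and 68.2, 20.1, 37.7, 26.6 and 46.5 CPM in stabilized libraries, where replicate 1 was the highest of all 10 and replicate 2 the lowest (-0.06 ± 0.337, adjusted p = 0.899). Scd2 had 767, 748, 693, 662 and 720.2 CPM in controls and 1155, 819, 1007, 667 and 1016 CPM in stabilized libraries. Of these, 4 lay above all controls and replicate 4 lay within their range (0.38 ± 0.160, adjusted p = 0.0650), and without replicate 4 the gene was called higher (0.47, adjusted p = 0.0175), as it was without replicate 2 (0.0488), without E13.5 control replicate 3 (0.0317) and with DESeq2 (0.0227). Scd2 was also called higher with DESeq2 size factors in edgeR (adjusted p = 0.0415) and with the E16.5 groups fitted alone (0.0266). Elovl6 stood at -0.32 ± 0.146 (adjusted p = 0.0867). It was called lower without stabilized replicate 1 (-0.41, adjusted p = 0.0327) and with the E16.5 groups fitted alone (-0.31, adjusted p = 0.03335). Me1 (ENSMUSG00000032418, chromosome 9, 86581371 to 86695953) went the other way, with 12.4, 3.75, 5.60, 6.60 and 7.46 CPM in controls and 94.8, 37.5, 70.6, 47.4 and 45.8 CPM in stabilized libraries. Its lowest stabilized library had about 3 times the level of its highest control (3.05 ± 0.540, adjusted p = 0.000231).

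**Figure D2:**
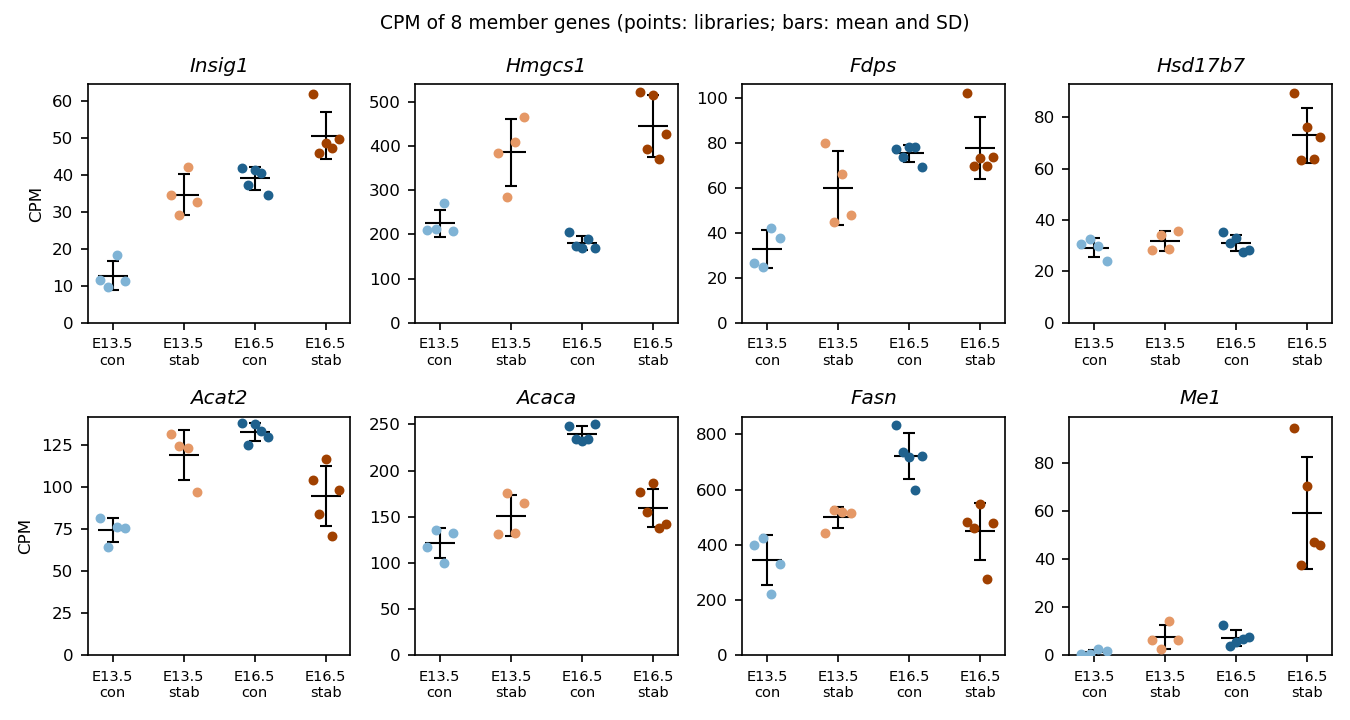
CPM (y axis, linear from 0) of 8 member genes in each library (points), with mean and SD, for E13.5 and E16.5 control (con) and stabilized (stab) groups. Hsd17b7 lies between 24.0 and 36.0 CPM in 3 groups and between 63.3 and 89.6 CPM in E16.5 stabilized libraries, while Fasn and Acaca are highest in E16.5 controls.

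In sterol synthesis 7 of 18 enzymes rose and 1, Acat2, fell, with a median of 0.12. These are 38.9% and 5.56%, against 22.2% and 19.4% of tested genes. Hmgcs1 had 205, 175, 169, 189 and 169 CPM in controls and 521, 393, 516, 369.8 and 427 CPM in stabilized libraries, with a wide gap between the groups (1.30 ± 0.137, adjusted p = 3.15e-07). Hsd17b7 (ENSMUSG00000026675, chromosome 1, 169949535 to 169969241) had 35.5, 31.0, 33.1, 27.7 and 28.5 CPM in controls and 89.6, 63.3, 76.3, 63.6 and 72.3 CPM in stabilized libraries. Again the groups lay far apart (1.23 ± 0.129, adjusted p = 2.86e-07). Acat2 had 138, 124, 137, 133 and 129.6 CPM in controls and 104, 84.0, 116, 70.5 and 98.2 CPM in stabilized libraries, all below the lowest control (-0.48 ± 0.122, adjusted p = 0.00328). The count of Acat2 carries an added uncertainty, since its near-identical neighbour Acat3 can share reads with it, and the same holds between the Scd paralogs.

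Nsdhl, the X-linked dehydrogenase that works beside Hsd17b7 in removing the methyl groups of lanosterol, rose from 28.2 ± 4.33 to 44.1 ± 5.18 CPM (0.64 ± 0.134, adjusted p = 0.000647). Sc5d, the desaturase late in the route, rose from 39.8 ± 5.54 to 56.6 ± 7.81 CPM and Fdft1 from 64.6 ± 2.23 to 97.7 ± 8.79 CPM (adjusted p = 0.00268 and 0.000241). Cyp51 had 98.1, 90.7, 88.8, 98.4 and 97.7 CPM in controls and 144, 107, 125, 107 and 116 CPM in stabilized libraries. Each stabilized value exceeded each control, but the rise was small (0.34 ± 0.123, adjusted p = 0.0328) and was not called without stabilized replicate 1 (0.26, adjusted p = 0.109), nor without any 1 of control replicates 1, 2 or 3 or stabilized replicate 3 (adjusted p 0.0521 to 0.0742). Mvk, mevalonate kinase, was likewise called with all libraries (0.52 ± 0.177, adjusted p = 0.0225) and not without that replicate (0.34, adjusted p = 0.098), nor without control replicate 5 (0.47, adjusted p = 0.0589).

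The enzymes between these did not pass. Fdps had 77.0, 73.7, 77.9, 78.1 and 69.2 CPM in controls and 102, 69.6, 73.0, 69.8 and 73.5 CPM in stabilized libraries, where replicate 1 alone lay above the controls (0.04 ± 0.171, adjusted p = 0.862). Sqle had 120.4, 122, 138, 115 and 114 CPM in controls and 155, 84.2, 115, 84.0 and 93.0 CPM in stabilized libraries. Here replicate 1 was the highest of all 10 and 3 others lay below every control (-0.20 ± 0.144, adjusted p = 0.297), and without replicate 1 Sqle was called lower (-0.37, adjusted p = 0.0157). Pmvk, Mvd, Idi1, Lss, Tm7sf2, Msmo1, Ebp and Dhcr7 had fold changes from -0.21 to 0.39 on the log2 scale and did not pass. Of these, Msmo1 passed with the E16.5 groups fitted alone (0.40, adjusted p = 0.0411).

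Of the 5 regulators 1 fell and 0 rose (20% and 0%, against 19.4% and 22.2% of tested genes). Scap had 162, 158, 164, 135 and 139 CPM in controls and 136, 113, 105, 64.3 and 102 CPM in stabilized libraries. The groups overlapped through replicate 1, and replicate 4 was far below the rest (-0.54 ± 0.175, adjusted p = 0.0175). Srebf1 had 109, 104, 112, 98.4 and 106 CPM in controls and 93.8, 74.2, 100.5, 57.6 and 94.4 CPM in stabilized libraries, 4 of which lay below all controls (-0.33 ± 0.148, adjusted p = 0.0784, and 0.0437 without stabilized replicate 3). Srebf2 had 285, 279.6, 307, 263 and 298 CPM in controls and 317, 240.1, 299, 168 and 282 CPM in stabilized libraries, a spread that enclosed the controls (-0.13 ± 0.155, adjusted p = 0.523). Insig1 had 41.8, 37.2, 41.4, 40.4 and 34.6 CPM in controls and 61.8, 45.8, 48.5, 47.3 and 49.7 CPM in stabilized libraries, each above each control, and did not pass (0.37 ± 0.156, adjusted p = 0.0624). It passed without E13.5 control replicate 3 (0.0177), with DESeq2 (0.0375), with DESeq2 size factors in edgeR (0.04185) and with a replicate block (0.0285). With the E16.5 groups fitted alone it passed too (0.38, adjusted p = 0.00928). Stard4 stood at -0.30 ± 0.193 (adjusted p = 0.228).

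Ranges did not overlap upward for 8 members (18.4% of tested genes) and downward for 4 (17.9%). Without E16.5 stabilized replicate 1 and E13.5 control replicate 3, 6 members rose and 9 fell, Sqle, Srebf1, Stard4 and Elovl6 joining those that fell, and the median of the members moved to -0.17. Without E16.5 stabilized replicate 4, 9 rose and 5 fell, with a median of 0.02. Acat2, Hmgcs1, Fdft1, Nsdhl, Hsd17b7, Acaca, Fasn and Me1 kept their calls in all 25 alternatives. Scap, Acly, Sc5d and Cyp51 lost theirs with the offsets of the deposited table (adjusted p = 0.371, 0.0507, 0.261 and 0.542).

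The difference between the genotype effects at E16.5 and E13.5 was tested as an interaction. It was negative for 9 members and positive for 3 (30% and 10%), where it was negative for 16.6% and positive for 15.6% of tested genes, 32.2% in all. The median over the members was -0.48, and 0.09 over all genes. The negative calls were Acat2 (-1.16 ± 0.184, adjusted p = 7.00e-05), Acaca (-0.90 ± 0.172, adjusted p = 0.000453), Fasn (-1.23 ± 0.263, adjusted p = 0.00127), Insig1, Acly, Stard4, Idi1, Fdps and Sqle. Acat2 was the member called higher at E13.5 and lower at E16.5. The positive calls were Hsd17b7 (1.11 ± 0.192, adjusted p = 0.000173), Sc5d (0.82 ± 0.188) and Nsdhl (0.58 ± 0.201). Of the enzymes that act beside or between these, Msmo1 (-0.19 ± 0.323), Ebp (-0.06 ± 0.290) and Dhcr7 (-0.79 ± 0.305) did not pass. For Hmgcs1 (0.52 ± 0.203, adjusted p = 0.0583), Fdft1 (0.03 ± 0.168, adjusted p = 0.935) and Me1 (0.36 ± 0.793, adjusted p = 0.782), which rose at both stages, a difference between the effects was not detected. Without E16.5 stabilized replicate 4 the positive calls numbered 6, with Hmgcs1, Mvk and Scd2 added, and Hmgcs1 was also called without E13.5 stabilized replicate 4, E16.5 control replicate 1 or E16.5 stabilized replicate 2 (adjusted p 0.0306 to 0.0451). Nsdhl lost its call without any 1 of E13.5 control replicates 1, 2 or 4, E13.5 stabilized replicates 1 or 4 or E16.5 control replicate 5 (adjusted p 0.0528 to 0.0700), Sqle without E16.5 control replicate 3 or stabilized replicates 2 or 5 (0.0510 to 0.0555), and Fdps without E13.5 stabilized replicate 1 (0.0543). With DESeq2 and with its size factors in edgeR, Hmgcs1 was called positive (adjusted p = 0.0254 and 0.0414). With the deposited offsets Hmgcs1 was called positive (0.65, adjusted p = 0.0421) and Srebf2 negative (-0.71, adjusted p = 0.0368). Idi1, Sqle, Stard4, Acly and Nsdhl lost their calls with these offsets (adjusted p 0.0521 to 0.144). Without E16.5 stabilized replicate 1, Dhcr7, Scap, Scd1 and Elovl6 were added to the negative calls.

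From E13.5 to E16.5 control epithelium gained RNA of most of the list. Of 30 members 21 rose and 1 fell (70% and 3.33%), against 24.9% and 22.6% of tested genes, 47.5% in all, and the median was 0.65 over the members and -0.03 over all genes. Scd1 rose 9.12-fold, from 4.57 ± 2.86 to 41.6 ± 11.3 CPM (adjusted p = 4.13e-06), and Me1 6.17-fold. With the offsets of the deposited normalized values both were smaller and not called (log2 fold change 1.49, adjusted p = 0.183 for Scd1, and 1.86, adjusted p = 0.0524 for Me1), and Lss, Msmo1, Scap and Acly lost their calls too (adjusted p = 0.273, 0.824, 0.243 and 0.0506). Insig1 rose by 1.62 ± 0.173, Idi1 by 1.48 ± 0.220, Stard4 by 1.30 ± 0.211, Fdps by 1.20 ± 0.187 and Elovl6 by 1.19 ± 0.159 on the log2 scale. Tm7sf2 fell, from 15.2 ± 7.17 to 7.43 ± 0.853 CPM (-1.03 ± 0.279, adjusted p = 0.00493), with control values at E13.5 that spread from 6.99 to 21.9 CPM. In the fatty acid arm 6 of 7 rose, Scd2 being the exception (-0.36 ± 0.168, adjusted p = 0.0884), in the regulators 4 of 5, all but Srebf1, and in the sterol arm 11 of 18. Hmgcs1 was lower in each E16.5 control than in each E13.5 control but did not pass (-0.31 ± 0.143, adjusted p = 0.0823), nor did Mvk, Pmvk, Mvd, Hsd17b7 and Sc5d. Ranges did not overlap upward for 20 members (22.3% of tested genes) and downward for Hmgcs1 alone (17.5%). The calls of Msmo1 and Ebp were marginal, and Acly missed the threshold without E13.5 control replicate 3 (adjusted p = 0.0521), where Scd2 was called lower (-0.49, adjusted p = 0.0135). Msmo1 missed it without any 1 of the other 3 E13.5 controls or of E16.5 controls 1, 3, 4 and 5 (up to 0.105), and Ebp without E13.5 controls 1 or 2 or E16.5 controls 2, 3 or 4 (0.0536 to 0.0659). All 22 cell-cycle genes rose over this interval, and their part was not tested.

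**Figure D3:**
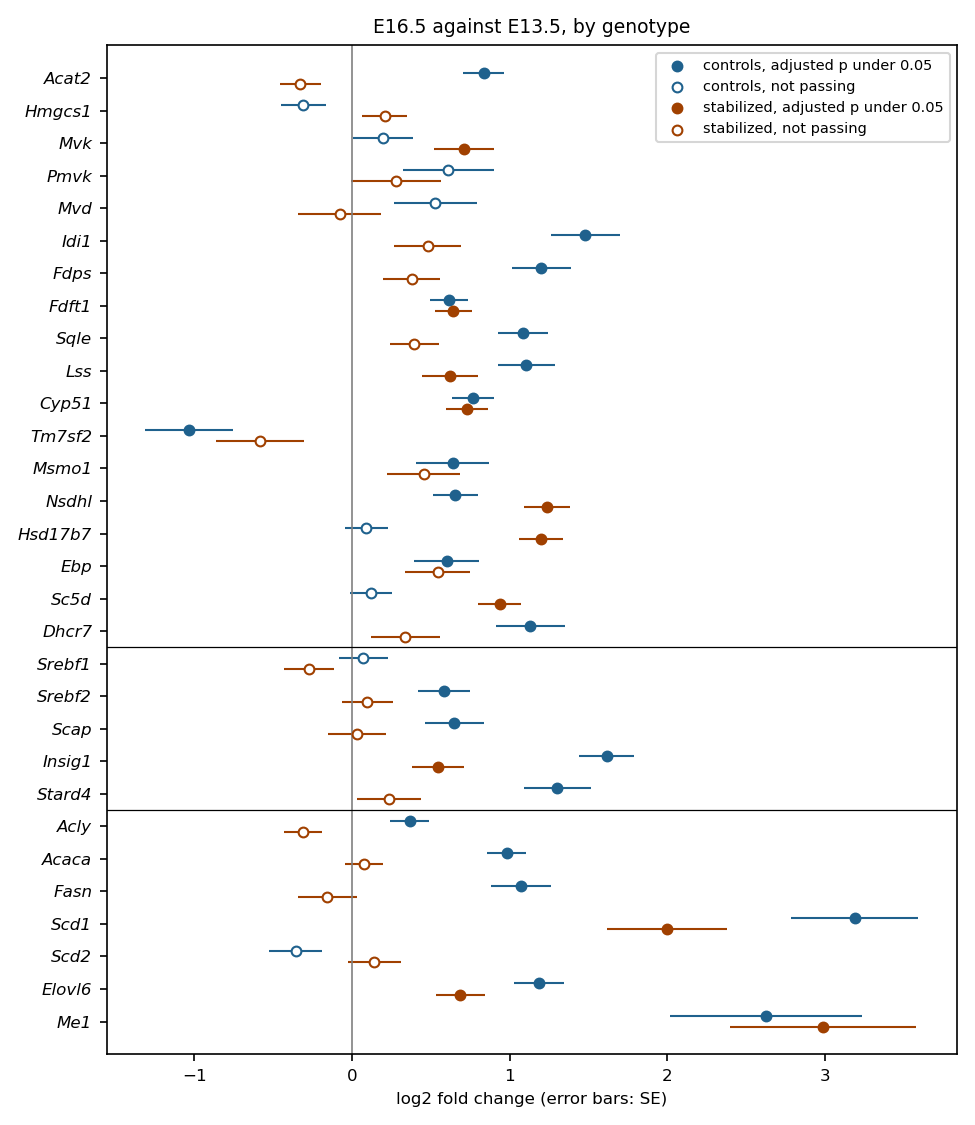
Log2 fold change of E16.5 against E13.5 (x axis, bars are SE) for each member (y axis, pathway order) in controls (blue) and in stabilized epithelium (brown); filled points passed the adjusted threshold. Fasn is at 1.07 in controls and at -0.16 in stabilized epithelium, and Hsd17b7 at 0.09 and 1.20.

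In stabilized epithelium 11 members rose over the same interval and 0 fell (36.7% and 0%), where 28% of tested genes changed, 11.5% downward and the rest upward, with a median of 0.39 against 0.00 over all genes. Me1 (2.99 ± 0.589), Scd1 (2.00 ± 0.381), Nsdhl (1.23 ± 0.146), Hsd17b7 (1.20 ± 0.139) and Sc5d (0.94 ± 0.135) had the largest rises. Fasn (-0.16 ± 0.185), Acaca (0.08 ± 0.122), Acly (-0.31 ± 0.121) and Acat2 (-0.33 ± 0.129) did not pass. Ranges did not overlap upward for 10 members (15.4%) and downward for Tm7sf2 alone (10.5%). With the deposited offsets Scd1, Mvk, Lss, Cyp51 and Elovl6 lost their calls (adjusted p = 0.107, 0.0660, 0.205, 0.103 and 0.0946) and Idi1 and Ebp gained one (0.0327 and 0.0456). Insig1 lost its call without E13.5 stabilized replicate 2 or 4 or E16.5 stabilized replicate 1 (adjusted p 0.0530 to 0.0702). Acly was called lower without E13.5 control replicate 3 or E16.5 stabilized replicate 1 (adjusted p = 0.0445 and 0.00939), and Acat2 without E13.5 stabilized replicate 4 or E16.5 stabilized replicate 3 (0.0314 and 0.0197). The stage effects share their libraries with the genotype effects, so the sets of calls are not independent of each other.

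By group means, 24 of the 30 members were lowest in E13.5 controls. The highest mean was in E16.5 controls for 15 members, in E16.5 stabilized libraries for 14 and in E13.5 controls for Tm7sf2. The mean log2 CPM of the 18 sterol enzymes was 4.78 to 5.01 in E13.5 controls, 5.17 to 5.36 in E13.5 stabilized buds, 5.31 to 5.59 in E16.5 controls and 5.44 to 6.08 in E16.5 stabilized libraries. The E13.5 groups did not overlap on this mean and the E16.5 groups did. For the 5 regulators it was 5.61 to 5.84, 6.08 to 6.33, 6.49 to 6.67 and 5.92 to 6.71 in the same order. For the 7 fatty acid genes it was 5.58 to 5.99, 6.33 to 6.72, 6.96 to 7.39 and 6.93 to 7.71. This mean of logs includes Me1, the 1 gene of the 7 that was called higher at either stage. The part of Me1 in this mean was not tested, so no rise of the arm is read from it. Stabilized against control, 6 of the 7 fold changes were above 0 at E13.5 and 2 at E16.5. In each of the 3 arms, the SD over libraries was largest in the E16.5 stabilized group, 0.244, 0.298 and 0.319 against at most 0.100, 0.117 and 0.198 in the other groups.

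**Figure D4:**
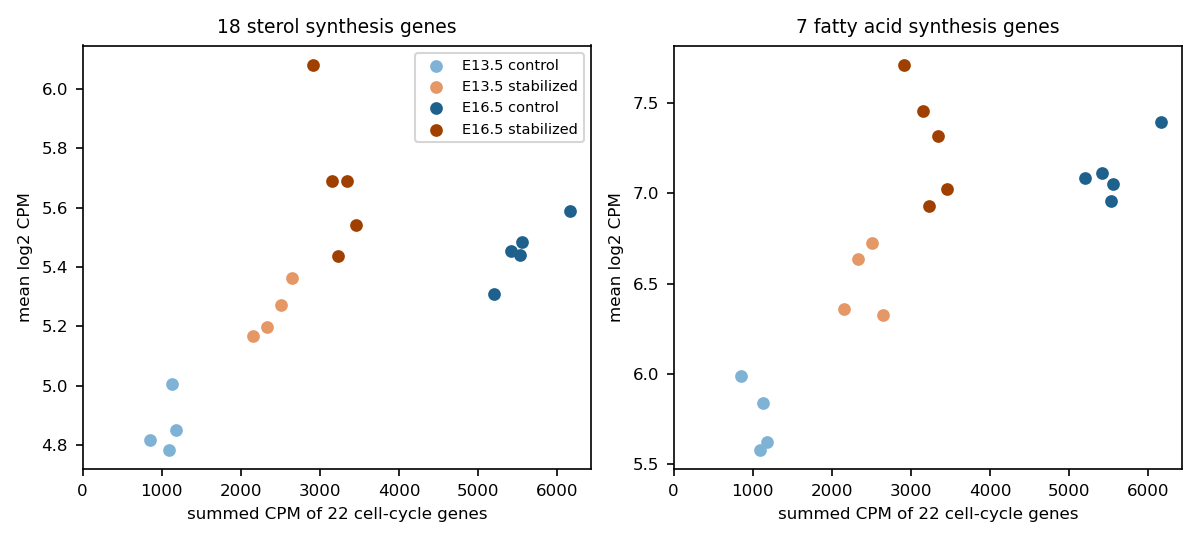
Mean log2 CPM (y axis) of the 18 sterol synthesis genes (left) and the 7 fatty acid synthesis genes (right) against the summed CPM of 22 cell-cycle genes (x axis), 1 point per library, colored by group. E16.5 controls lie at 5198 to 6160 CPM of cell-cycle genes with sterol means of 5.31 to 5.59, and E16.5 stabilized libraries at 2906 to 3452 CPM with sterol means of 5.44 to 6.08.

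Beyond the members, 38 other genes of sterol and lipid handling (uptake, storage, export, desaturation and their control) gave 8 rises and 0 falls at E13.5 (21.1% and 0%, against 9.58% and 5.29% of all tested genes) and 14 rises and 8 falls at E16.5 (36.8% and 21.1%, against 22.2% and 19.4%), with medians of 0.07 and -0.05. At E13.5 the list includes Mylip, a ubiquitin ligase gene controlled by the sterol receptor LXR, which rose by 2.79 ± 0.247 on the log2 scale, the acyl-CoA synthetase genes Acsl4 (1.31) and Acsl3 (0.88), and Lbr, which encodes a nuclear membrane protein with sterol reductase activity (1.40). At E16.5 Mylip again rose, by 2.89 ± 0.222, together with the cholesterol exporter genes Abca1, from 17.0 ± 4.46 to 86.0 ± 19.9 CPM, and Abcg1, from 15.7 ± 2.47 to 53.8 ± 15.4 CPM, which LXR is also known to control. At E13.5 Abcg1 had 33.8 to 47.5 CPM in controls and 25.4 to 39.2 CPM in stabilized buds. Abca1 had 117 to 136 and 152 to 265 CPM there. A part of LXR in these changes was not tested. Acsl4 fell from 339 ± 42.9 to 53.2 ± 5.05 CPM (-2.67 ± 0.151). The difference between the stages was called for Acsl4 (-3.98), Abcg1 (2.31), Lbr (-1.87) and Abca1 (1.70). From E13.5 to E16.5 in controls, 16 of these 38 genes rose and 6 fell, among them Acsl4 (3.68) and Abca1 (-2.91). These are 42.1% and 15.8%, against 24.9% and 22.6% of all tested genes.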

How the data were processed

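The deposited tables hold, per Ensembl gene and library, estimated counts (already whole numbers in the deposited file) and a normalized signal, which the authors made by dividing counts by factors that differ between genes within a library, as the deposited values show. Per the submitters' processing notes, the build was mm10 and the tools included Salmon 0.99.0, Trimmomatic 0.39, DESeq2 3.15 (as written there), MultiQC 1.9 and FastQC 0.11.8. For settings, annotation release and strand, the sources used here give nothing. Gene symbols and positions came from GENCODE M21 (GRCm38/mm10), and 24166 of 24376 identifiers had a symbol. Counts of genes that share exon bases with another gene are uncertain, for Fdps over 26.7% of its exon bases, Fdft1 18.3%, Scap 13.2%, Hmgcs1 12.1% and Tm7sf2 12.1%.

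In edgeR 4.0.16 (R 4.3.3), filterByExpr (minimum count 10) kept 17269 genes. TMM factors and a robust quasi-likelihood fit with 1 mean per group over 18 libraries followed (common dispersion 0.25), with Benjamini-Hochberg adjustment over all genes. Mean log2 CPM used a prior count of 2. The code was tested on simulated data. The design text names biological replicates from at least 3 litters but not the litter of each library, so some libraries may share one. Libraries of a group differed by at least 31.0 chi-square units per degree of freedom, far above counting noise. Replicate numbers did not pair the samples (correlations of same-numbered deviations -0.0995 to 0.172).

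Members and lists were chosen with earlier results of these data known. Values per library are printed by a rule: 9 members fixed by name, the 3 largest called changes per direction and genotype comparison, and the 2 smallest interaction p-values. Genes of other lists were named by smallest p, at most 4 per list and comparison. Alternatives were DESeq2 1.42.0, its size factors, no filter, the offsets of the deposited signal, the compared groups alone, a replicate block, each library left out and, added after seeing the data, 2 libraries left out together. Protein sequences were not used here.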

Additional observations from a re-analysis of the deposited data

Results flagged for a closer look

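The genotype effect differed between E13.5 and E16.5 by the interaction test for 12 members (log2 difference, E16.5 effect minus E13.5 effect). It was negative for Acat2 (-1.16), Idi1 (-1.001), Fdps (-0.82), Sqle (-0.69), Insig1 (-1.07), Stard4 (-1.07), Acly (-0.68), Acaca (-0.90) and Fasn (-1.23), and positive for Nsdhl (0.58), Hsd17b7 (1.11) and Sc5d (0.82).

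A library stood apart from its group in 8 of 120 sets of member and group, where chance gives about 1 set in 20. Of these, 3 were E16.5 stabilized replicate 1, the library with the high epidermal sum, as the highest: Fdps at 101.9 CPM against 73.5 for the next, Dhcr7 at 54.9 against 32.8 and Insig1 at 61.8 against 49.7. In E16.5 controls, replicate 1 was high for Pmvk (20.9 against 17.3 CPM) and Stard4 (52.2 against 43.4 CPM), and replicate 5 was low for Ebp (10.4 against 18.1 CPM). In E13.5 controls, replicate 3 was high for Hmgcs1 (269.9 against 213 CPM). In E13.5 stabilized buds, replicate 1 was low for Fasn (441.7 against 514 CPM).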

How the results depend on the processing

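Direction and call held in every alternative run for 4 of 10 calls at E13.5 (Acat2, Hmgcs1, Fdps, Insig1), 8 of 13 at E16.5, 6 of 12 for the interaction (Acat2, Hsd17b7, Sc5d, Insig1, Acaca, Fasn), 15 of 22 for the stage effect in controls and 5 of 11 for that in stabilized epithelium. With the offsets of the deposited table, 6 members rose and 1 fell at E13.5, 3 fell at E16.5, and the median interaction was -0.22. DESeq2 called 3 members lower between the stages in controls, and the compared groups alone 2. Without E13.5 control replicate 3 and E16.5 stabilized replicate 1, 9 fell at E16.5 (median -0.17), 2 fell between the stages in controls and 1 in stabilized epithelium. With each library left out in turn, 6 to 12 members rose and 0 fell at E13.5, 6 to 10 rose and 5 to 7 fell at E16.5 (median -0.17 without stabilized replicate 1), the interaction was positive for 2 to 6 and negative for 8 to 13, and between the stages 19 to 21 rose and 1 to 2 fell in controls and 10 to 13 rose and 0 to 1 fell in stabilized epithelium. Among the members with values per library, some values changed sign, none of them past the threshold in either analysis: with the offsets, Srebf1 at E13.5 (-0.30) and in the interaction (0.27), and Scd1 at E16.5 (0.77) and in the interaction (0.56); Cyp51 in the interaction with DESeq2 size factors (0.012) and DESeq2 (0.012); without the 2 libraries, Srebf1 (-0.10) and Scap (-0.10) at E13.5, Fdps at E16.5 (-0.075) and Me1 in the interaction (-0.42). With single libraries left out, Srebf1 ranged from -0.11 to 0.092 and Scap from -0.09 to 0.20 at E13.5, Scd1 from -0.35 to 0.12 and Fdps from -0.07 to 0.10 at E16.5, and in the interaction Cyp51 from -0.16 to 0.070 and Me1 from -0.21 to 0.89. The cause of these changes was not tested. With the replicate number as a block, 12 members rose and 0 fell at E13.5, 8 rose and 6 fell at E16.5, 2 and 11 had a positive and a negative interaction, and 21 and 12 rose between the stages in controls and stabilized epithelium; no count moved by over 1.5 times, the calls of Cyp51 (adjusted p = 0.0519, E16.5) and Nsdhl (interaction) were lost, and Fasn and Scd1 (E13.5), Insig1 and Srebf1 (E16.5), Dhcr7 and Scd1 (interaction) and Ebp (stage, stabilized) were gained. DESeq2 size factors moved the median of all genes at E16.5 to 0.14 and the deposited offsets to 0.13, against 0.10. Low counts limit Me1 and Scd1 in E13.5 controls.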
